A study of Cucumis sativus and Manihot esculenta and Brachypodium distachyon with 34 samples.

Results

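The 73737 mCHH regions of cucumber (*Cucumis sativus*) leaf are described here, together with the small RNAs of 20, 21, 22, 24, 25 and 26 nt that map to them. Every region of the cucumber table was taken, and they are 73737 of the 809247 regions in the 6 species tables of this kind that were deposited. An mCHH region is a stretch of genome bounded by cytosines that are methylated in the CHH context, where H is any base but G. The study compared DNA methylation between flowering plants, using bisulfite sequencing of leaf DNA, and added small RNA sequencing of leaf for some species. For cucumber, leaf of the accession GY14, an inbred cucumber line with a sequenced genome, was flash frozen with no treatment named. There was 1 small RNA library and 1 set of regions, so no value below has a replicate, no difference was tested, and intervals cover counting error only. Regions of 1 library are not replicates, and rank correlations across regions are descriptions without a p-value.

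CHH methylation has no matching cytosine on the other strand and has to be placed anew after each round of replication. In plants, RNA-directed DNA methylation (RdDM) does this with 24 nt siRNAs, which are cut from RNA polymerase IV transcripts by a Dicer-like enzyme and guide a DNA methyltransferase to matching sequence, often at the edges of transposons. The chromomethylase CMT2 methylates CHH sites in deep heterochromatin without siRNAs. The 21 and 22 nt classes hold microRNAs and siRNAs made by other Dicer-like enzymes, which mostly act on transcripts, although some 21 and 22 nt siRNAs also feed into DNA methylation.

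The regions covered 24.3 Mb, or 11.9% of the span from the first to the last position in the table. Their mCHH level, the share of CHH cytosines read as methylated, had a median of 21.1%, with an interquartile range of 12.5 to 34.1% and extremes of 1.02 and 100%. No read depth is given for single regions, so the precision of a region's level is unknown. Region length had a median of 210 bp and ran from 8 to 7018 bp, with 17347 regions (23.5%) under 100 bp and 3801 of at least 1000 bp. The gap to the next region had a median of 872 bp. The library held 17979983 mapped hits, a hit being 1 place to which a read maps, and 10609528 of them, 59.0%, lay in mCHH regions and belonged to the 6 size classes. The median region had 13 hits, whereas the mean was 144, and 28 regions held 50% of all hits.

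The 20 nt class, and not the 24 nt class, was the largest by hits, but the 24 nt class was present in the most regions. Hits of 20 nt numbered 3220149, or 30.4% of those in regions. Hits of 24 nt numbered 2754622, or 25.96% (Wilson 95% interval 25.94 to 25.99%). The 21 nt class made up 17.8%, the 22 nt class 17.2%, the 25 nt class 4.61% and the 26 nt class 4.09%. In contrast, at least 1 hit of 24 nt was found in 82.5% of regions, of 22 nt in 76.4%, of 21 nt in 59.3%, of 20 nt in 53.4%, of 25 nt in 35.4% and of 26 nt in 9.20%. The order of the 20 and 24 nt classes by hits rested on 1 region: without the region with most 20 nt hits, 20 nt made up 22.3% and 24 nt 29.0%. Without the 100 regions with most hits, 24 nt made up 48.2%.

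The size classes differed in how few regions carried them. Of the 20 nt hits, 34.1% lay in 1 region, 76.9% in 10 regions and 92.0% in the 737 regions (1%) with most of them, and 3 regions held 50%. Of the 21 nt hits, 7.60% lay in 1 region, 50.1% in 10 and 81.3% in the 1% of regions with most. The 26 nt class resembled them, with 51.5% of its hits in 10 regions and 90% in only 73. The 22 and 24 nt classes were spread out. The 1% of regions with most 22 nt hits held 42.3% of that class, and 1395 regions were needed for 50%. For 24 nt, the same values were 36.7% and 2086 regions, and 19852 regions were needed for 90% of the hits, against 210 for 20 nt and 4239 for 21 nt.

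**Figure D1:**
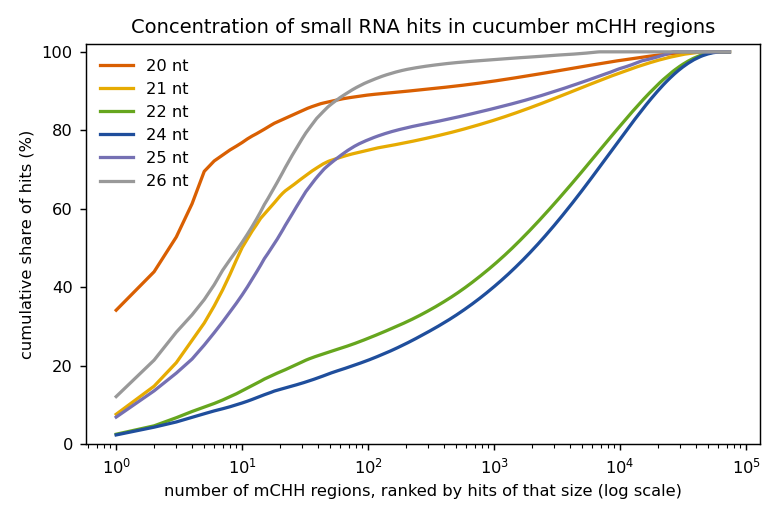
Cumulative share of the hits of each size class (percent, y axis) against the number of mCHH regions, ranked by hits of that class (log scale, x axis). The 20, 21, 25 and 26 nt curves rise steeply over the first 100 regions, to between 74.96 and 92.4%, while the 22 and 24 nt curves reach 27.0 and 21.4% there.

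Accordingly, the size composition depended on which regions were looked at. The 10 regions with most hits held 38.7% of all hits, of which 59.8% were 20 nt, 19.99% were 21 nt and 6.15% were 24 nt. The first of them alone held 10.4% of all hits, and 99.9% of its hits were 20 nt, so the shares of this band rest in part on 1 region. In the regions ranked 11 to 100, which held 18.1% of hits, 21 nt was the largest class with 30.3%, and 24 nt made up 15.03%. From rank 101 to 1000 the 24 nt share was 44.6%, from 1001 to 10000 it was 48.5%, and in all remaining regions it was 51.3%. The 22 nt share lay between 29.3 and 30.1% in these last 3 bands, and the 20 nt share went from 9.72 to 6.88%. The median mCHH level was 40.2% in the first band, then 33.2, 29.2, 27.3 and, in the last, 20%.

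**Figure D2:**
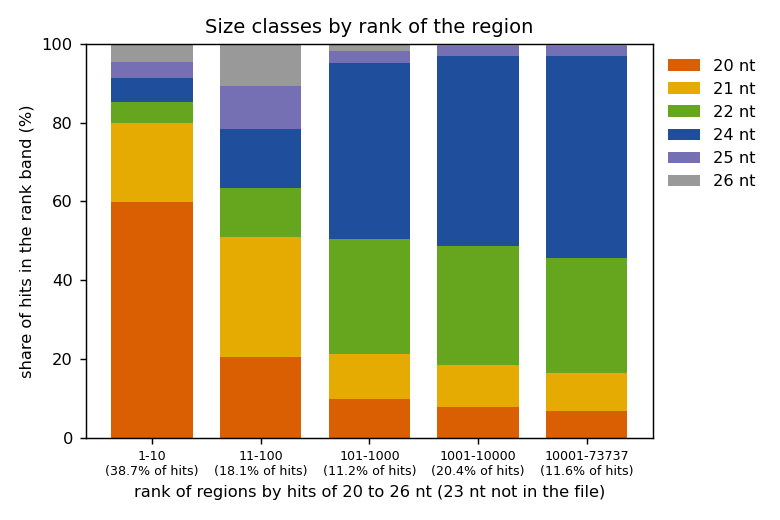
Share of the hits in each band (percent, y axis) by size class, for regions ranked by their hits of all 6 classes (x axis, with the share of all hits each band holds). The 24 nt class takes 6.15% of the hits of the 10 regions with most hits and 51.3% of those ranked below 10000.

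The region with most hits was nearly pure 20 nt and had a low mCHH level. It lies from 150287395 to 150287509 on the sequence that the table names 1, is 114 bp long and was 4.05% methylated. It had 1099355 hits of 20 nt, 194 of 21 nt, 252 of 22 nt, 35 of 24 nt, 56 of 25 nt and 239 of 26 nt. Thus 99.9% of its hits had a single length, and this region alone held 10.4% of all hits in mCHH regions. In the rest of the 20 regions with most hits, the 20 nt share did not exceed 65.0%.

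The next 4 regions by hits shared another profile, in which 20 nt hits outnumbered 21 nt hits by 2.11 to 2.49 times and the longer classes were small. The region from 71918091 to 71919867 (37.8% mCHH) had 315504 hits of 20 nt, 143342 of 21 nt, 28985 of 22 nt and 32814 of 24 nt. That from 115201614 to 115202080 (27.9% mCHH) had 285360 of 20 nt, 135053 of 21 nt, 20443 of 22 nt and 13971 of 24 nt. The other two, from 22563260 to 22563925 and from 174164314 to 174164783, were 46.1 and 50.7% methylated, with 272303 and 266290 hits of 20 nt and 112987 and 106825 of 21 nt. In these 4 regions 24 nt made up between 2.11 and 5.62% of hits, and their mCHH levels were all above the median of all regions.

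The regions with most 22 and 24 nt hits had a flat profile rather than a 24 nt peak. The most 24 nt hits, 64438, were in the region from 137504184 to 137505369 (50.4% mCHH), which also had 85673 hits of 20 nt, 83658 of 21 nt, 45905 of 22 nt, 33649 of 25 nt and 52576 of 26 nt. Hence 24 nt made up 17.6% of its hits. The regions from 145365771 to 145368374 (22.4% mCHH) and from 153709696 to 153710333 (42.5% mCHH) followed, with 54597 and 36472 hits of 24 nt, or 21.3 and 15.8% of their hits. The same 3 regions had the most 22 nt hits. The most 25 and 26 nt hits were in the first and the second of them and in the region at 71918091. By hits per kb of region, the first place for 24 nt among regions of at least 100 bp went to a 180 bp region from 192409875 to 192410055 (60.6% mCHH), with 71506 per kb, and there too 20 nt was the largest class with 34.1%.

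**Figure D3:**
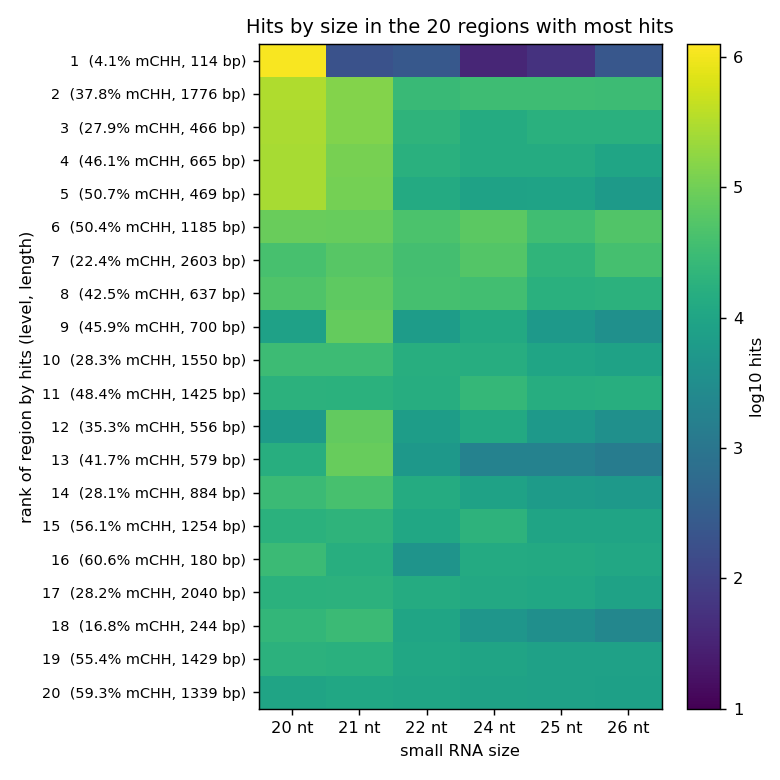
Hits of each size class (columns) in the 20 regions with most hits (rows, by rank, with mCHH level and length), on a log10 colour scale. The first region is bright in the 20 nt column only, while most of the others carry every size class, and 24 nt is the largest class only in the region ranked 11, with 24875 hits.

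Regions dominated by 24 nt were found further down the ranking. Among the 593 regions with at least 1000 hits, the highest 24 nt shares were 95.5% (Wilson 94.2 to 96.5%) from 68395061 to 68395249, with 1145 of 1199 hits, 94.6% from 156322984 to 156323349, with 1268 of 1340 hits, and 94.1% from 155053562 to 155053833, with 1234 of 1312 hits. Their levels were 18.9, 58.9 and 68.7%. These regions belong to one of the sets of near-equal regions described last, but were matched on their 24 nt hits alone. Their other classes had too few hits to be compared, with 2, 11 and 11 hits of 20 nt and 38, 30 and 44 of 22 nt. The regions are not separate instances where the same reads map to all of them, which was not analysed here. The highest 22 nt shares were 71.0% from 69776392 to 69776976 (44.5% mCHH), 67.0% from 127323404 to 127323703 (6.34% mCHH) and 57.6% from 143232902 to 143233814 (20.5% mCHH). In the first of these 22 nt led 24 nt by 1819 to 484 hits.

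The 3 regions with the highest 21 nt share were 46, 125 and 400 bp long, and all of them had over 90% of their hits at this size. From 182365926 to 182365972, a region of 46 bp with 39.4% mCHH had 7853 hits of 21 nt among 8233, or 95.4%. A 125 bp region from 196268553 to 196268678 (32.1% mCHH) had 37329 among 39847, or 93.7%, and 298632 hits of 21 nt per kb. The third, from 29299327 to 29299727, had 4483 among 4820 hits, or 93.0%, and a level of only 4.58%. In all of them 20 nt was the second class, with 4.30, 5.44 and 5.10%, and 24 nt was under 1% of hits.

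Region by region, 24 nt was by far the most common leading class. Among the 30761 regions with at least 20 hits, 24 nt was the most common size in 24673, or 80.2% (Wilson 79.8 to 80.7%). The 22 nt class led in 4692 (15.3%), 21 nt in 699 (2.27%), 20 nt in 551 (1.79%), 25 nt in 76 and 26 nt in 70. In 698 regions (2.27%) 2 or more classes were tied, and the shortest of them was counted as leading. With ties counted for 24 nt, it led in 82.2%. Regions led by 20 nt held 39.7% of all hits and those led by 24 nt 33.6%, an order that rested on 1 region: without the region with most 20 nt hits, the shares were 32.8 and 37.4%. The median region with at least 20 hits had 51.2% of its hits at 24 nt (interquartile range 42.0 to 60.5%), 29.3% at 22 nt, 8.33% at 21 nt and 5.71% at 20 nt. The 22 and 24 nt classes together exceeded 80% of hits in 19416 of these regions (63.1%) and were under 50% in 1510 (4.91%). Regions with a single class above 80% were rare: 613 for 24 nt, 12 for 22 nt, 6 for 20 nt and 5 for 21 nt. Regions led by 22 nt had a median level of 26.6%, next to 26.5% for those led by 24 nt, and were of similar length, with medians of 279 and 310 bp.

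To ask whether the same regions carried different classes, the 737 regions with most hits were listed for each class. Each list was 1% of all regions, which is also the share that unrelated lists would have in common. The lists of 20 and 21 nt shared 71.9% of their regions, those of 22 and 24 nt 65.5%, those of 21 and 24 nt 55.4% and those of 20 and 24 nt 50.1%. The lists of 24 and 26 nt shared 17.8%. Hits of 26 nt were found in only 9.20% of regions, with a median of 1 hit in those. The part of such low counts in this smaller overlap was not tested. In all 6 lists there were 117 regions, which held 46.0% of all hits, whereas the 165 regions found only in the 24 nt list held 1.27%. Over all 73737 regions, hits per kb of 22 and 24 nt had a rank correlation of 0.84, those of 21 and 24 nt 0.68 and those of 20 and 24 nt 0.62. These classes come from the same library and are divided by the same region length.

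Above 5% mCHH, regions of higher level had more hits per kb of the 20, 21, 22 and 24 nt classes. Regions were grouped by level at 5, 15 and 25%. There were 618 below 5%, 24420 from 5 to 15%, 18258 from 15 to 25% and 30441 above 25%. Pooled over the regions of a group, 24 nt hits per kb were 52.0, 32.9, 121 and 259. The ratio of the highest group to the group of 5 to 15% was 7.86 for 24 nt, 9.05 for 22 nt, 20.9 for 21 nt and 31.2 for 20 nt. These ratios rested to different degrees on the regions with most hits. Without the 1% of regions with most hits of the class, they were 6.07 for 24 nt, 6.06 for 22 nt, 4.84 for 21 nt and 5.03 for 20 nt. That 1% was picked for each class by its own hits. It held 92.0% of the 20 nt, 81.3% of the 21 nt, 42.3% of the 22 nt and 36.7% of the 24 nt hits. These ratios thus compare unlike remainders, and their order between classes cannot be read from them. The median region, which a few crowded regions cannot move, had 8.21 hits of 24 nt per kb in the group below 5%. It had 8.60 in the group of 5 to 15%, 35.4 in that of 15 to 25% and 72.7 in that above 25%. By this measure the group below 5% did not exceed that of 5 to 15%.

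In bins of 10 percentage points, without the same 1%, 24 nt hits per kb went from 17.1 below 10% mCHH to 45.2, 107, 142, 178, 228, 248 and, from 70 to 80%, 289, and stood at 277 in the 211 regions of 80% and more. Hits of 22 nt ran in parallel, from 10.2 below 10% to 168 from 70 to 80%. Those of 20 nt went from 3.03 to 40.9 over the same bins. With all regions kept, none of the 4 classes went up with the level throughout. Hits of 20 nt were 247 per kb below 10%, 13.9 from 10 to 20% and 799 from 50 to 60%. From the bin of 50 to 60% to that of 60 to 70%, 24 nt went from 513 to 377 per kb, 22 nt from 366 to 229, 21 nt from 524 to 149 and 20 nt from 799 to 196. The rank correlation of level with hits per kb over all regions was 0.43 for both 22 and 24 nt, 0.33 for 21 nt, 0.31 for 20 nt and 0.08 for 26 nt.

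**Figure D4:**
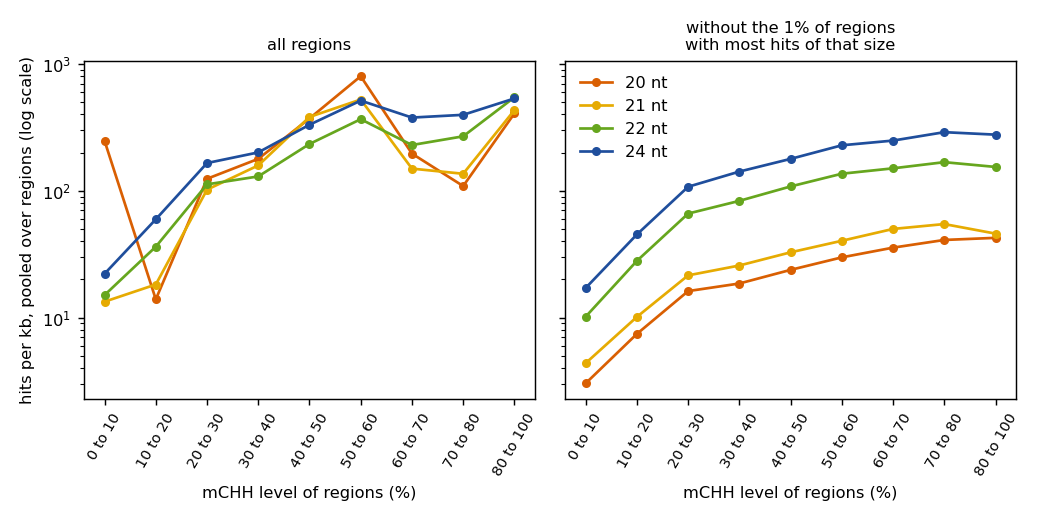
Hits per kb pooled over the regions of each bin of mCHH level (log scale, y axis) against the level (percent, x axis), for 4 size classes, with all regions on the left and without the 1% of regions with most hits of the class on the right. On the right all 4 classes are higher in each bin than in the one before up to 70 to 80%, and in the last bin 21, 22 and 24 nt are lower again, with 24 nt at the top throughout, from 17.1 to 289 and then 277 per kb, while on the left the 20 nt value below 10% mCHH, 247 per kb, comes mostly from 1 region.

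Regions of higher mCHH were shorter, with a median of 139 bp above 25% against 326 bp from 5 to 15%. The authors kept only regions with at least 5 methylated cytosines, a rule that short regions of low level meet less easily. How much of the difference in length comes from this rule was not tested. The comparison between these groups was repeated among regions of similar length. Without the 1% of regions with most 24 nt hits, the ratio of 24 nt hits per kb between these groups was 4.201 for regions under 100 bp, 5.86 from 100 bp to under 300 bp, 5.33 from 300 bp to under 1000 bp and 5.73 for 1000 bp and more. With all regions kept, the last value was 21.02, as several of the regions with most hits are long and highly methylated. Counted per region and not per kb, the ratio over all lengths was 3.39 for 24 nt.

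The regions below 5% mCHH had a different size composition. Among the 165 of them with at least 20 hits, 20 nt led in 39.4%, 21 nt in 23.6% and 24 nt in 21.2%, whereas 24 nt led in 78.8, 81.1 and 80.9% of regions in the higher groups. The median 24 nt share was 16.8% in these regions, against 50.3 to 51.7% in the others. Hits of 20 nt reached 5275 per kb in this group and 59.6 without the region with most 20 nt hits. Without that region, the group's hits were 19.8% of 20 nt, 28.0% of 21 nt, 14.4% of 22 nt, 17.2% of 24 nt, 10.04% of 25 nt and 10.6% of 26 nt, so that no size dominated.

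Regions of low level were found in 151 of the 204 blocks of 1 Mb into which the sequence was divided, and were most numerous in 3 of them. Of the 618, 129 (20.9%) lay in these 3 blocks, which held 820 (1.11%) of all regions. The block from 127 to 128 Mb held 65 of them among 121 regions, and its median level was 4.68% (interquartile range 3.64 to 7.12%), while the next lowest block had a median of 12.7%. Its 24719 hits were spread over all sizes, with 23.9% at 20 nt, 18.0% at 21 nt, 19.3% at 22 nt, 14.7% at 24 nt, 14.3% at 25 nt and 9.84% at 26 nt. Of its 70 regions with at least 20 hits, 24 nt led in 9. The size composition of the regions below 5% was not computed without this block, so how far it rests on the block is unknown. The blocks from 200 to 201 Mb and from 152 to 153 Mb held 37 and 27 regions below 5%, among 286 and 413, and 24 nt led in 81 of 131 and 136 of 184 regions with at least 20 hits there. These blocks were singled out after their values had been seen.

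No hit of any class was found in 6837 regions (9.27%). They had a median length of 90 bp, against 225 bp for regions with a hit, and a median level of 17.7 against 21.5%. Among regions under 100 bp, 21.8% had no hit, and among those of at least 1000 bp, 10 had none (0.263%), the longest being 2034 bp. At this depth a short region without a hit was therefore common, and cannot be read as a region without small RNAs. By level, the share without a hit was 12.1, 11.4, 9.58 and 7.31% from the lowest to the highest group. Among regions of similar length the groups lay further apart: from the group of 5 to 15% to that above 25%, the share went from 35.1 to 17.98% under 100 bp, from 16.9 to 1.67% from 100 bp to under 300 bp, and from 5.75 to 0.0171% from 300 bp to under 1000 bp.

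Regions of at least 1000 bp were rarely without a hit at any level. From the lowest to the highest level group, the share without one was 0, 0.362, 0.104 and 0%. All 340 regions above 25% mCHH and of at least 1000 bp had some, with a median of 253 per kb. The fewest were 34 hits from 159054888 to 159056149 (32.6% mCHH), 39 from 7111905 to 7113037 (29.1% mCHH) and 51 from 183668074 to 183669197 (30.4% mCHH), of which 15, 21 and 32 were 24 nt. These are 27.0, 34.5 and 45.4 hits per kb. The longest region of all, 7018 bp from 190969062 to 190976080, had a level of 14.3% and 2888 hits, of which 64.5% were 24 nt. The highest level among regions of at least 100 bp, 93.8% from 170366733 to 170366833, came with 14 hits, 4 of them 24 nt.

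Along the sequence, the rank correlation between neighbours was higher for the level of mCHH than for hits per kb. For 27220 pairs of neighbouring regions less than 500 bp apart, the rank correlation was 0.53 for the level, 0.37 for 24 nt hits per kb, 0.34 for 22 nt, 0.22 for 21 nt and 0.19 for 20 nt. For 10954 pairs more than 5000 bp apart it was 0.14 for the level and 0.02 for 24 nt. At least 1 hit of 24 nt was found in 82.5% of regions, and of 20 nt in 53.4%. Ties and low counts thus enter the correlations of hits, and their part in these differences was not tested. A region led by 22 nt was followed within 500 bp by another led by 22 nt in 16.5% of 856 pairs, and a region led by 24 nt was followed by one led by 22 nt in 15.7% of 4164 pairs.

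In blocks of 1 Mb, those with more mCHH region length had lower levels and fewer 24 nt hits per kb. Over 203 whole blocks, the rank correlation of region length per block was -0.91 with the median level, -0.65 with 24 nt hits per kb and 0.77 with the number of 24 nt hits. In the 51 blocks with least region length, 23.3 to 64.2 kb, the medians over blocks were 30.0% mCHH, 150 hits of 24 nt per kb and 7254 hits of 24 nt. In the 51 with most, 166 to 337 kb, they were 15.3%, 75.3 per kb and 15399 hits. Thus blocks rich in mCHH regions had more 24 nt hits in all and fewer per kb of region. Region length per block is also the divisor of hits per kb, so these measures are not independent. Blocks with more region length also had longer regions, at a rank correlation of 0.96 with their median length. The authors' minimum number of methylated cytosines per region can tie length to level, and its part in these correlations was not tested. The 5% of blocks with most hits held 80.7% of the 20 nt class, 60.4% of 21 nt, 21.6% of 22 nt and 18.5% of 24 nt. Without the 1% of regions with most hits of the class, these shares were 8.80, 8.79, 8.13 and 7.74%. That 1% was picked for each class by its hits, and held 92.0% of the 20 nt hits but 36.7% of the 24 nt hits. The fall therefore restates how concentrated each class was over regions, and says nothing separate about position.

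**Figure D5:**
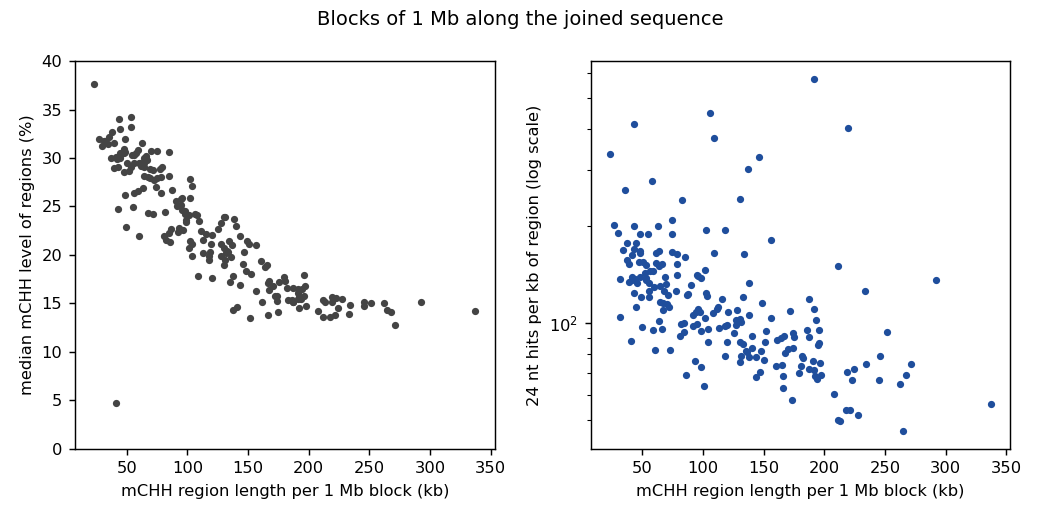
Median mCHH level (percent, left) and 24 nt hits per kb of region (log scale, right) against the length of mCHH regions in each of 203 whole blocks of 1 Mb (kb, x axis), with 1 point per block. Both are lower in blocks with more region length, and 1 block with a median level of 4.68% lies apart on the left. The length on the x axis is also the divisor of the hits per kb.

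The 100 regions with most hits held 56.7% of all hits in 0.338% of the region length. Their median level was 34.8%, and 66 of them were above 25% mCHH. In part they lay together: 29 were in 11 groups in which each member lay within 10 kb of the next. The largest group, 7 regions between 145365771 and 145398736, spanned 33.0 kb and held 522027 hits, or 4.92% of all, at 20.7% of 20 nt, 24.2% of 21 nt, 14.2% of 22 nt, 18.7% of 24 nt, 9.49% of 25 nt and 12.8% of 26 nt. Levels of its members ran from 22.4 to 59.3%, and 12 further mCHH regions within the span were not among the 100. This group was singled out after its values had been seen.

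Some regions far apart had nearly the same hits in the classes with at least 50 hits. Of the 593 regions with at least 1000 hits, 185 (31.2%) could be joined into 49 sets in which each region had at least 1 partner whose hits differed by no more than 10% in every class with at least 50 hits. Members were joined through single partners, so those of a set can differ by more than 10%. How often unrelated regions would match in this way was not estimated. Together they held 3.33% of all hits. The largest set had 16 regions with 2224 to 2836 hits and a 24 nt share of 45.0%, spread over 201 Mb. Over this set, 24 nt hits ran from 959 to 1344 and 22 nt hits from 605 to 852. Its first and last members, from 304485 to 304987 and from 201107840 to 201108601, had 1297 and 1344 hits of 24 nt and 796 and 803 of 22 nt. Their levels were 32.1 and 18.6%, and over the set the level ran from 18.6 to 57.4%. A read that matches several places is counted at each of them in these values, and how many reads are shared within a set was not analysed here.

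Another set, of 8 regions, had a 24 nt share of 87.9%, and the set of 4 that holds the regions with the highest 24 nt shares named above had 94.3%, at levels of 18.9 to 68.7%. In the set of 8, hits per region were 3666 to 3975, among them 3274 to 3436 of 24 nt and 328 to 430 of 22 nt, and the members were spread over 138 Mb. Their mCHH levels were 10.4 to 27.7%, 6 of the 8 below the median of all regions, and 24 nt hits numbered 6620 to 19318 per kb. A set of 10 regions with 721 to 974 hits of 24 nt had levels from 11.9 to 77.6%. That was the widest range of levels in any of the 49 sets, with a ratio of 6.53 between highest and lowest, and the median ratio was 1.88.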

How the data were processed

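One small RNA library of *C. sativus* leaf and its mCHH regions were analysed. The mCHH level of each region was deposited as a fraction, after the authors had trimmed MethylC-seq reads with Cutadapt, aligned them with bowtie, removed reads with several locations, called methylated sites by a binomial test and merged nearby windows holding such sites. The small RNA values were also deposited as a fraction: the authors cleaned reads with the UEA small RNA toolkit, aligned them with PatMan without mismatches, and divided the hits of each length overlapping a region by all mapped hits. The 23 nt class has no column. Reads matching several places were counted at each. Which of the study's *C. sativus* methylomes gave the regions is not stated in the sources used here. The paper saw an unusual mCHH pattern in many highly expressed cucumber genes, but not in a second cucumber sample. Whether region levels differ between these methylomes was not examined. The FPKM tables and other species were not used.

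To return to hits, each fraction was divided by the library's smallest one, and 100% of the 233089 values above 0 came out whole (within 0.001). An empty value was taken as 0. Region length is end minus start. No source used here says if the first base is numbered 0 or 1. All regions lie on 1 sequence that reaches 203357482 and looks like joined scaffolds. Neighbours and blocks follow that order. No genome or annotation of this build was used, so genes are not given.

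For a group of regions, the summed hits were divided by the summed length in kb. Python 3.11.15, NumPy 2.4.6, pandas 2.3.3 and Matplotlib 3.10.9 were used. On hits simulated for the 73737 regions with counting error only, the level ratio was recovered in 12 of 12 sets. The share held by the top 1% of regions was recovered in 12 of 12 sets of constructed values with a known answer. Both check the calculation, and not how these values behave on hits as uneven as those of the library. Named regions are the 3 with most hits of each class, the 3 with most 21 and 24 nt hits per kb (at least 100 bp), the 3 with the highest 21, 22 and 24 nt share (at least 1000 hits), the longest, the highest in level (at least 100 bp), and the 3 above 25% mCHH and of at least 1000 bp with fewest hits per kb. These lists and rules were chosen with earlier results of these data known. The 95% intervals of shares are Wilson intervals and hold for counting error alone, as the places of a read and PCR copies are not independent.

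Alternatives changed the ranking, the shortest region, the regions with most hits, the minimum number of hits, the block size, and whether regions with equal hits in every class were counted once.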

Additional observations from a re-analysis of the deposited data

How the results depend on the processing

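No paired analysis was possible because there was 1 library. Of 55 alternatives for 15 results, 4 stayed within the counting interval of the value as reported, and no ratio between level groups fell to 1 or below. Counting error is so small that most moves are past it, and the cause of a move was not tested. The limits are those of 1 library: a hit is not an independent molecule, positions look like those of joined scaffolds, and short regions hold few hits.

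The 24 nt share of hits, 25.96% as reported, was 35.7% without the 1% of regions with most 24 nt hits, 25.4% in regions of at least 100 bp, 25.5% with regions of equal hits counted once and, in alternatives chosen after seeing the data, 48.2% without the 100 regions with most hits and 29.0% without the region with most 20 nt hits. Counting regions of equal hits once left out 9079 regions. Equal hits were common at low counts (12166 of 40969 regions with at least 10 hits, but 2 of 10460 with at least 100), so that setting mostly removed regions with few hits.

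The share of hits in the 1% of regions with most of them, ranked by hits per kb, was 91.4, 79.6, 37.4 and 31.8% for 20, 21, 22 and 24 nt. In regions of at least 100 bp it was 92.0, 81.2, 41.0 and 35.6%, and with equal hits counted once 42.0% for 22 nt and 36.5% for 24 nt.

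The ratio of hits per kb above 25% mCHH to that of 5 to 15%, for 20, 21, 22 and 24 nt in this order, was 4.65, 4.07, 5.50 and 5.42 without the 1% of regions with most hits per kb of the class, 13.4, 9.02, 3.897 and 3.39 by hits per region, 35.3, 23.1, 9.61 and 8.19 in regions of at least 100 bp, 30.1, 20.3, 8.94 and 7.82 with equal hits counted once, and 5.08, 4.63, 6.87 and 6.62 without the 100 regions with most hits (chosen after seeing the data).

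The share of regions led by 24 nt was 73.6% with a minimum of 5 hits, 79.8% with 100 and 79.5% with equal hits counted once. The overlap of the 21 and 24 nt lists was 48.4% when ranked by hits per kb, 51.4% for the 0.1% of regions with most hits and 54.9% with equal hits counted once.

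The share of hits in the 5% of blocks with most of them was, for 20, 21, 22 and 24 nt, 89.5, 76.3, 31.0 and 26.04% in blocks of 200 kb, 80.9, 60.7, 22.05 and 18.9% with equal hits counted once, and 8.80, 8.79, 8.13 and 7.74% without the 1% of regions with most hits of the class. That 1% was picked for each class by its hits, and held 92.0% of the 20 nt hits but 36.7% of the 24 nt hits. The last setting therefore restates how concentrated each class was over regions, and is no separate result.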
